A study of Mus musculus with 40 samples.

Results

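The 36 genes described here encode proteins that carry fatty acids into muscle, store and release them, move them into mitochondria and oxidise them there. They were chosen by gene symbol from a list of fatty acid uptake and oxidation genes, and all 36 were found among the 22844 genes of the deposited tables, each on 1 row. All 36 also passed the filter on low counts, a level of 1 CPM (counts scaled to a common library total) or more in 5 libraries, which left 13543 genes to test. The data are mRNA sequencing libraries of the extensor digitorum longus (EDL), a fast hindlimb muscle of the mouse, with 40 libraries in 8 groups of 5.

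The study compared TSCmKO mice, in which the mTORC1 inhibitor gene Tsc1 is lost in skeletal muscle fibers, with control littermates (CON) that carried floxed Tsc1 alleles (Tsc1fl/fl) and no Cre recombinase. The labels give the strain Tsc1tm1Djk/J for both genotypes. Mice were 3 or 9 months old (3m, 9m) and were injected intraperitoneally for 3 days with vehicle or with rapamycin (RM), a drug that inhibits mTORC1, at 4 mg per kg by the labels, while the text of the study gives a higher dose per day, so that the dose is uncertain. The vehicle groups are 3mCON, 3mTSCmKO, 9mCON and 9mTSCmKO, and the treated groups are 3mCON+RM, 3mTSCmKO+RM, 9mCON+RM and 9mTSCmKO+RM. Because Tsc1 was lost in fibers and whole muscle was sequenced, RNA from fewer cells of a type and less RNA per cell cannot be told apart.

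Muscle takes up fatty acids that lipoprotein lipase releases from circulating triglyceride, and binding proteins and acyl-CoA synthetases prepare them for use. Long-chain acyl groups enter mitochondria through the carnitine shuttle, which malonyl-CoA inhibits at its first step, and the beta-oxidation spiral then shortens them cycle by cycle, passing electrons to the respiratory chain through the electron transfer flavoprotein. Nuclear receptors of the PPAR family are known to switch on many of these genes when fatty acids are plentiful, as in fasting.

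Promoter sequences are shown for the 4 members that differed between TSCmKO and CON at both ages, and for Hadhb, whose window overlaps that of its partner gene Hadha. They come from RefSeq (build GRCm38.p6) and run from 250 bases before to 50 bases after the annotated start, on the strand of the gene. Capitals mark the GC box GGGCGG on either strand, the one motif of those searched that was found in these windows.
Fabp3: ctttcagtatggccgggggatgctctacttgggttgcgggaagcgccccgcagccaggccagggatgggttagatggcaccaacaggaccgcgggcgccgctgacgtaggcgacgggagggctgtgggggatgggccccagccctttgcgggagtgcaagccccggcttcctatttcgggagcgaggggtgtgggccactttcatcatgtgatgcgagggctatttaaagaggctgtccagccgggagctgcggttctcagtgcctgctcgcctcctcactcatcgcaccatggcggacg
Mlycd: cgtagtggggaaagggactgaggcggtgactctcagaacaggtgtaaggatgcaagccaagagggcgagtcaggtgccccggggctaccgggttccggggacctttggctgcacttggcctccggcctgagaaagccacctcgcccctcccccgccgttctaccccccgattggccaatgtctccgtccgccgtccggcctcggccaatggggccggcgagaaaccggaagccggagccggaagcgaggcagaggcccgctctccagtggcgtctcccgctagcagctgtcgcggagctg
Acadm: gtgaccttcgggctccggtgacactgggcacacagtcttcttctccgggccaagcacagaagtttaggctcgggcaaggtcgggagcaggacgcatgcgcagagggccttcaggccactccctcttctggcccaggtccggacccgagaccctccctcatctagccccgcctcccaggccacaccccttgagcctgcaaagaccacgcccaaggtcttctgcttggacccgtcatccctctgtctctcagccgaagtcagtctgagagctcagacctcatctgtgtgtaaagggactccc
Acads: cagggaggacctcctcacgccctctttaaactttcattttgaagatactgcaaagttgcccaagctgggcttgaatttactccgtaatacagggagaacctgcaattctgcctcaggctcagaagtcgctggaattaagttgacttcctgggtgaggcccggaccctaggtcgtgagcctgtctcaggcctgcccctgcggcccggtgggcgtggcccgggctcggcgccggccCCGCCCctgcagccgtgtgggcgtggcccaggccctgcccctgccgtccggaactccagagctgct
Hadhb: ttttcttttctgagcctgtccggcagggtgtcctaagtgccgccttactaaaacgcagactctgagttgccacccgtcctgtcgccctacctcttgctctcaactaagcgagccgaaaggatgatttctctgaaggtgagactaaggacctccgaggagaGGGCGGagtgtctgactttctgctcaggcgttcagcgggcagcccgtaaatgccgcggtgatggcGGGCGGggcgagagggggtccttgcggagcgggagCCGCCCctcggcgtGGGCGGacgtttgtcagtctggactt

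The Fabp3 window lies at chr4:130308488-130308787 on the plus strand and that of Mlycd at chr8:119394644-119394943 on the plus strand. The Acadm window lies at chr3:153944594-153944893 on the minus strand and that of Acads at chr5:115119297-115119596 on the minus strand. Hadhb, at chr5:30155003-30155302 on the plus strand, shares 228 bases with the window of Hadha at chr5:30154931-30155230 on the minus strand, and the 2 RefSeq starts are 273 bases apart. These genes, which encode the alpha and beta subunits of the mitochondrial trifunctional protein, are thus transcribed away from each other.

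RefSeq windows were found for 30 of the 36 members, in 32 promoters, and not for Lpl, Angptl4, Cpt1b, Crat, Decr1 and Acaa2. The GC box was in 22 of these 32 windows, belonging to 21 members, and in 35.7% of all 32851 promoters of the same length. The E box CACGTG, the FoxO site GTAAACA and the cAMP response element TGACGTCA were also searched on both strands. They were in 7.15%, 3.65% and 1.79% of all promoters, in this order, and in 0 of the 32 member windows. The median GC content was 61% in the member windows and 52.7% in all promoters, with medians of 17 and 7 CpG dinucleotides.

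Total counts ran from 8883870 to 35224669 per library. Tsc1 was lower in 9mTSCmKO than in 9mCON (24.4 to 35.8 against 51.3 to 122 TMM-scaled CPM, log2 fold change -1.55, adjusted p = 2.33e-09) and in 3mTSCmKO than in 3mCON (log2 fold change -1.99, adjusted p = 2.49e-11), and the libraries of the 2 genotypes did not overlap. The summed level of 8 skeletal muscle genes (Acta1, Ckm and others) was at least 79793 CPM in every library. It was lower in 9mTSCmKO (79793 to 98299 CPM) than in 9mCON (120444 to 153398 CPM) without overlap, with 5 of the 8 called lower, and 100769 to 160369 CPM in 9mTSCmKO+RM, with 4 called higher than in 9mTSCmKO. Some libraries stood apart among the 36 members: 9mCON replicate 1 was the lowest of its group for 26, 3mCON+RM replicate 2 the highest for 31, 3mTSCmKO replicate 4 the highest for 26, and 9mTSCmKO replicate 3 the highest for 21. Results that rest on one of them are given with and without it.

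Marker lists of fiber types and of other cell types also differed between the groups. The 8 slow and oxidative fiber genes, such as Myl2 and Tnnc1, summed to 3261 to 5815 CPM in 9mTSCmKO and to 1646 to 2473 CPM in 9mCON, and 7 of the 8 were called higher. The 8 fast glycolytic fiber genes summed to 83445 to 103904 CPM in 9mTSCmKO and to 119209 to 136474 CPM in 9mCON, again without overlap, and 2 of the 8 were called lower. In 9mTSCmKO+RM the fast fiber sum was 115752 to 134926 CPM, with 3 called higher and 1 lower than in 9mTSCmKO. The 10 adipocyte markers, of which 1 was called higher and 2 lower among 8 tested, summed to 1488 to 4136 CPM in 9mTSCmKO and to 651 to 1455 CPM in 9mCON. That sum was mostly Car3, which muscle fibers also express (mean 2313 against 539 CPM), whereas Adipoq, which defines adipocytes, was lower (1.14 against 4.18 CPM). The 9 endothelial markers in the table summed to 336 to 472 against 410 to 568 CPM, with 4 called lower. The tendon and fibroblast list had 7 of 10 called lower in 9mTSCmKO and 9 of 10 called lower in 9mCON+RM. For 3mTSCmKO and 3mTSCmKO+RM, the tendon and fibroblast sum was 757 to 1456 CPM (median 1059) in the vehicle group and 1192 to 2059 CPM (median 1903) in the treated group, with 3 of 10 called higher. In 3mCON this sum was 892 to 2320 CPM (median 1567). The adipocyte sum, again mostly Car3, was 664 to 3066 CPM in 3mCON and 1789 to 4595 CPM in 3mTSCmKO. The macrophage sum was 71.9 to 138 CPM (median 109) in 3mTSCmKO and 104 to 208 CPM (median 169) in 3mTSCmKO+RM, with 2 of 10 called higher, and 4 of 8 skeletal muscle genes were also called higher. What part these shifts have in the results below was not tested.

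At baseline the members spanned a wide range of levels per transcript length. In the 5 libraries of 3mCON the most abundant was Fabp3, the heart and muscle fatty acid binding protein, at 1126 ± 115 TPM (SD, n = 5; TPM is a level scaled by transcript length and library total), followed by Pdk4 at 884 ± 118 TPM and Lpl at 542 ± 109 TPM. The least abundant were Acot1 at 8.34 ± 1.31 TPM, Angptl4 at 8.05 ± 0.44 TPM and Cpt1a at 7.69 ± 0.64 TPM. Among these 3, the levels did not differ beyond their spread.

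**Figure D1:**
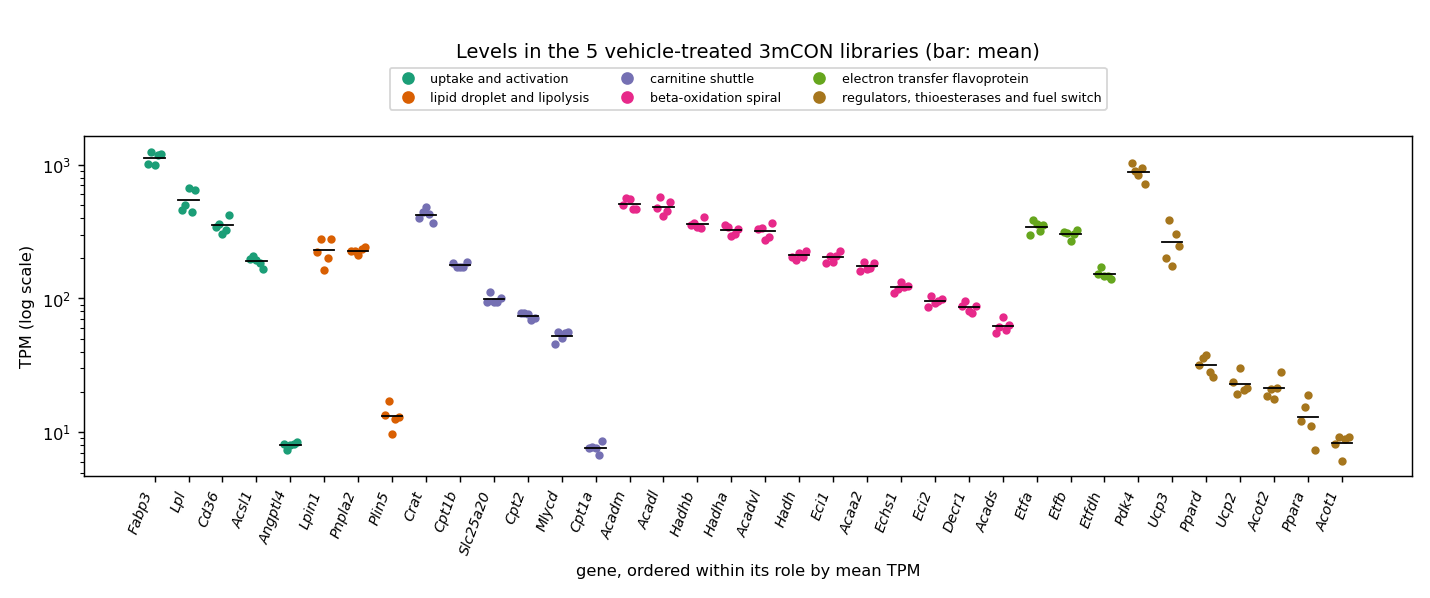
Level of each of the 36 genes in the 5 vehicle-treated 3mCON libraries, in TPM on a log axis. Each point is 1 library, the bar is the mean, and colour gives the role of the gene. The means run from 1126 TPM for Fabp3 down to 7.69 TPM for Cpt1a.

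The 2 forms of carnitine palmitoyltransferase 1, the entry step of the shuttle, were far apart. Cpt1b, the muscle form, had a mean of 178 TPM in 3mCON and Cpt1a, the liver form, 7.69 TPM, a ratio of 23.1. Across the 8 groups this ratio of means ran from 19.5 in 3mCON+RM to 32.8 in 9mTSCmKO+RM. The level of Cpt1b is uncertain, since 78.6% of its 50-base windows also occur in transcripts of AC137513.1, another gene of the table, and Cpt1b held only 53.2% to 57.7% of the counts of the pair. Etfb shares 43.8% of its windows with Gm45233, Acot2 shares 27.7% and Acot1 19%, mostly with each other.

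Members were called in both directions in the genotype comparisons. In 9mTSCmKO against 9mCON, 5 of the 36 (13.9%) were called higher at an adjusted p under 0.05 and 5 (13.9%) lower, beside 19.1% and 18.9% of all genes tested. The median log2 fold change of the members was -0.08 and that of all genes -0.02. In 3mTSCmKO against 3mCON, 2 members (5.56%) were called higher and 2 lower, beside 11.4% and 8.32% of all genes. Of the genes called at 3 months 57.9% were higher under TMM factors and 49.3% under upper-quartile factors. The share of fatty acid genes called was thus no larger than the share of genes in general at either age.

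Rapamycin in TSCmKO muscle also gave calls in both directions. At 9 months 4 members (11.1%) were called higher and 3 (8.33%) lower in 9mTSCmKO+RM against 9mTSCmKO, beside 15.8% and 16.8% of all genes. At 3 months 3 (8.33%) were called higher and 5 (13.9%) lower, beside 10.6% and 13% of all genes. The direction split of all genes at 3 months depended on scaling, with 44.9% of called genes higher under TMM factors and 55.7% under upper-quartile factors. The comparison of drug-treated TSCmKO with vehicle CON called 3 members higher and 2 lower at 9 months, beside 15.7% and 16.2% of all genes, and 1 higher and 2 lower at 3 months, beside 8.98% and 7.71%.

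**Figure D2:**
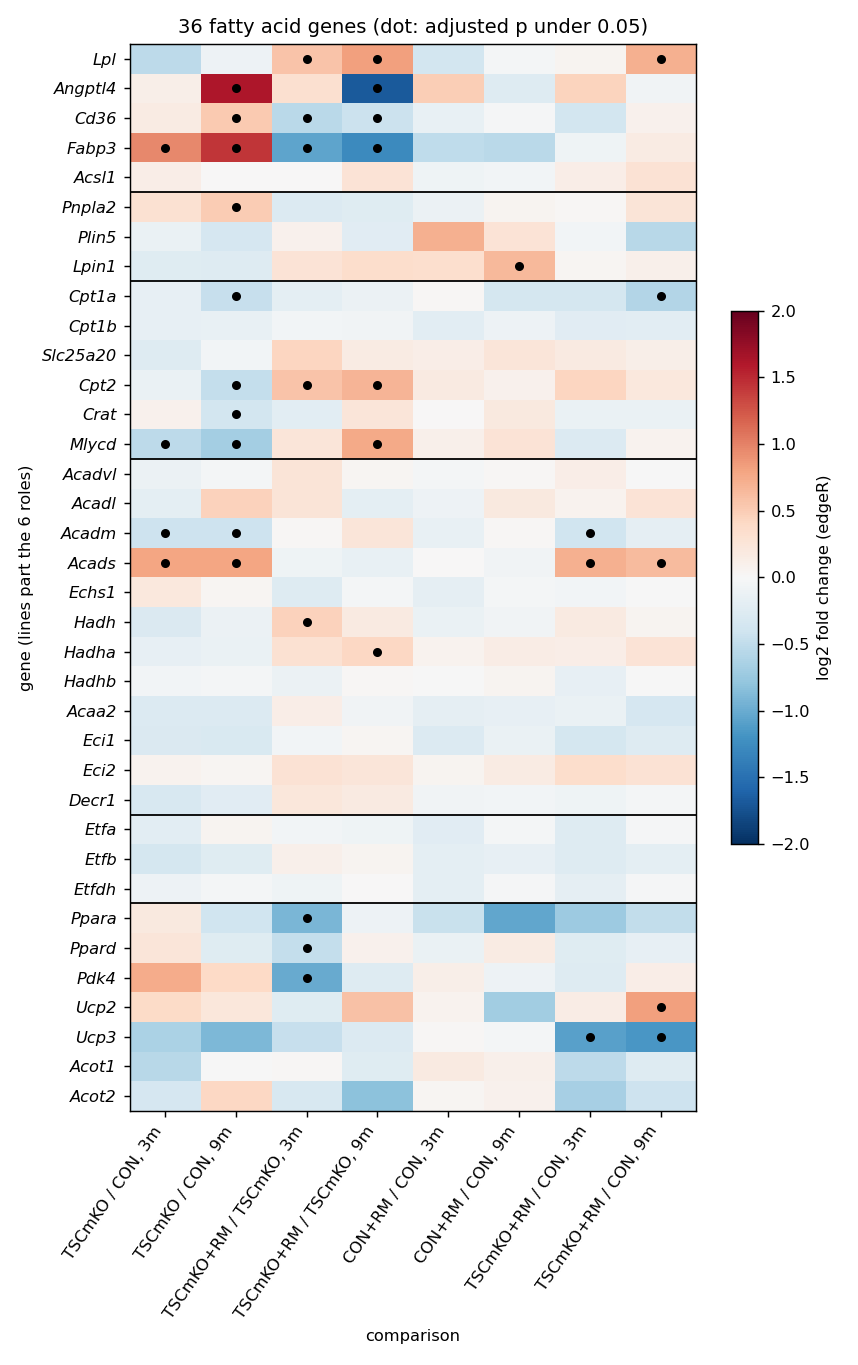
log2 fold change of the 36 genes (rows, parted into 6 roles) in 8 comparisons (columns), with red for higher and blue for lower in the first-named group; dots mark adjusted p under 0.05. Dots in the 4 left columns fall mostly on the uptake genes and the carnitine shuttle, and the electron transfer flavoprotein rows have none.

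Uptake held the members with the largest changes, Fabp3 and Angptl4. Fabp3 (chr4:130308595-130315463 in GRCm38) had 1376, 1228, 3630, 1840 and 1105 TMM-scaled CPM in the 9mTSCmKO libraries and 434, 1165, 701, 613 and 483 in 9mCON. All but one of the TSCmKO libraries, replicate 5, thus exceeded every control library. The log2 fold change was 1.43 ± 0.32 (SE; 2.70-fold, adjusted p = 0.00061), and it was called with any 1 library left out (lowest value 1.03).

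The same gene was higher at 3 months, where the groups did not overlap. The 3mTSCmKO libraries had 756, 642, 785, 1547 and 1084 CPM of Fabp3 and the 3mCON libraries 442, 541, 426, 545 and 510. The difference of 0.97 ± 0.32 on the log2 scale passed (adjusted p = 0.0287), a call lost on leaving out replicate 1 or 3 of 3mCON or replicate 4 or 5 of 3mTSCmKO (values 0.74 to 0.95, adjusted p 0.0552 to 0.109) and also without the filter on low counts (adjusted p 0.0538). The genotype effect at 9 months exceeded that at 3 months by 0.47 ± 0.45 (SE) on the log2 scale, which did not pass the test (adjusted p = 0.605).

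After 3 days of rapamycin, Fabp3 fell in TSCmKO muscle at both ages. The 9mTSCmKO+RM libraries had 1010, 712, 617, 671 and 800 CPM, all below the lowest of 9mTSCmKO (log2 fold change -1.27 ± 0.32 (SE), adjusted p = 0.0026). At 3 months the treated libraries had 553, 596, 492, 355 and 320 CPM, again without overlap (log2 fold change -1.06 ± 0.32 (SE), adjusted p = 0.0141), a call lost on leaving out replicate 4 of 3mTSCmKO (value -0.82, adjusted p 0.0701). Treated TSCmKO and vehicle CON did not differ past the threshold in Fabp3 at 9 months (log2 fold change 0.17 ± 0.32) or at 3 months (-0.09 ± 0.32).

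In control muscle rapamycin gave log2 fold changes of Fabp3 of -0.53 ± 0.32 at 9 months (231 to 824 CPM after treatment) and -0.51 ± 0.32 at 3 months (191 to 574 CPM), with adjusted p of 0.319 and 0.714. The difference between the rapamycin effects of the 2 genotypes was -0.74 ± 0.45 at 9 months and -0.54 ± 0.45 at 3 months, and neither passed (adjusted p-values 0.365 and 0.662). Fabp3 is also a gene of slow and cardiac muscle. The slow fiber list that was higher in 9mTSCmKO had 1 gene called higher and 3 called lower in 9mTSCmKO+RM, summing to 2490 to 3207 CPM. At 3 months its sum overlapped between the groups, at 1521 to 2388 CPM (median 1701) in 3mCON and 935 to 2724 CPM (median 1648) in 3mTSCmKO. In 3mTSCmKO+RM the sum was 1206 to 1987 CPM (median 1797). The part of fiber type in the Fabp3 values was not tested.

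Angptl4, a secreted inhibitor of lipoprotein lipase, was high in only some of the 9mTSCmKO libraries. They had 69.6, 31.4, 115, 14.5 and 5.47 CPM, beside 20.6, 20.7, 18.4, 6.93 and 10.7 CPM in 9mCON. The groups overlap, with replicate 5 of 9mTSCmKO below every control. The log2 fold change of 1.62 ± 0.56 (SE) passed the test (adjusted p = 0.0231), a call lost on leaving out replicate 4 or 5 of 9mCON or replicate 1 or 3 of 9mTSCmKO (values 0.97 to 1.53, adjusted p 0.0529 to 0.168) and also with only the compared groups in the fit (adjusted p 0.0738).

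The treated 9mTSCmKO+RM libraries lay in a narrow band of Angptl4, at 14.6, 11.4, 21.2, 14.3 and 11.8 CPM. Their difference from 9mTSCmKO was -1.68 ± 0.57 (SE) on the log2 scale (adjusted p = 0.0213), a call lost on leaving out replicate 3 of 9mTSCmKO (value -1.04, adjusted p 0.151) and also with insert size as a term (adjusted p 0.0549) and with only the compared groups in the fit (adjusted p 0.051). The insert size term drops replicate 5 of 9mTSCmKO+RM, which has none in the labels. At 3 months the genotype difference was 0.11 ± 0.57, with 5.07 to 18.4 CPM in 3mTSCmKO and 7.92 to 10.2 CPM in 3mCON, and did not pass (adjusted p = 0.921). The difference between the genotype effects of the 2 ages did not pass either (adjusted p = 0.302).

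Lpl, the enzyme that Angptl4 inhibits, was not called between 9mTSCmKO and 9mCON (log2 fold change -0.10 ± 0.20) but rose with rapamycin. It had 930, 837, 732, 793 and 467 CPM in 9mTSCmKO and 1278, 1325, 1212, 1262 and 1547 CPM in 9mTSCmKO+RM. Every treated library exceeded every vehicle library, and the log2 fold change was 0.82 ± 0.20 (SE, adjusted p = 0.00156), called with any 1 library left out. The treated TSCmKO libraries also lay above all 9mCON libraries (737 to 835 CPM; log2 fold change 0.72 ± 0.20, adjusted p = 0.00481).

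At 3 months Lpl was 609, 352, 558, 1226 and 568 CPM in 3mTSCmKO, with replicate 4 far above the others, and 1165, 1208, 747, 995 and 814 CPM in 3mTSCmKO+RM. Replicate 4 of 3mTSCmKO was also the highest of its group for each of the adipocyte markers. Adipoq was at 15.5 CPM there and at most 6.94 CPM in the other libraries of the group, and Cidec at 19.4 and at most 4.78 CPM. The part of adipocytes in the Lpl values was not tested. The rise of 0.57 ± 0.20 (adjusted p = 0.0309) was a call lost on leaving out replicate 1, 2, 3 or 5 of 3mTSCmKO or replicate 1, 2 or 4 of 3mTSCmKO+RM (values 0.41 to 0.57, adjusted p 0.0529 to 0.12) and also with only the compared groups in the fit (adjusted p 0.153), and was 0.91 without 3mTSCmKO replicate 4. In control muscle the log2 fold changes of Lpl were -0.37 ± 0.20 at 3 months and -0.04 ± 0.20 at 9 months, and neither passed. The rapamycin effects on Lpl differed between the genotypes at 3 months by 0.95 ± 0.28 (adjusted p = 0.0487, 1 member called higher beside 1.36% of all genes and 0 lower beside 2.09%), a call lost on leaving out replicate 2, 3 or 5 of 3mCON or replicate 1, 3, 4 or 5 of 3mCON+RM or replicate 1, 2, 3 or 5 of 3mTSCmKO or replicate 1, 2 or 4 of 3mTSCmKO+RM (values 0.79 to 0.98, adjusted p 0.0507 to 0.108) and also without the filter on low counts (adjusted p 0.0747), with the replicate block (adjusted p 0.0568) and with only the compared groups in the fit (adjusted p 0.0847). At 9 months this difference was 0.86 ± 0.28 and missed the threshold (adjusted p = 0.0641), although it was called by DESeq2 and with only the compared groups in the fit.

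Cd36, the membrane carrier of fatty acids, was called higher in TSCmKO muscle at 9 months and lower after rapamycin in TSCmKO muscle at both ages. Its mean was 711 ± 149 CPM (SD) in 9mTSCmKO and 495 ± 62.5 in 9mCON (log2 fold change 0.52 ± 0.16 (SE), adjusted p = 0.00778), and 4 of the 5 TSCmKO libraries lay above all controls. Between 3mTSCmKO and 3mCON the difference was 0.17 ± 0.16 and did not pass (adjusted p = 0.491), with means of 601 ± 209 and 534 ± 63.6 CPM (SD) and overlapping groups. It fell with rapamycin in TSCmKO muscle by 0.43 at 9 months (adjusted p = 0.0304), a call lost on leaving out replicate 3 of 9mTSCmKO or replicate 1, 2 or 4 of 9mTSCmKO+RM (values -0.43 to -0.34, adjusted p 0.0528 to 0.11) and also without the filter on low counts (adjusted p 0.0581) and with only the compared groups in the fit (adjusted p 0.0668). It fell by 0.54 at 3 months (adjusted p = 0.0101), and by 0.32 without 3mTSCmKO replicate 4 (adjusted p = 0.111), where the call was lost. That library was also the highest of its group for the adipocyte markers, whose part in the Cd36 values was not tested. Acsl1, the acyl-CoA synthetase of the group, was called in no comparison, with log2 fold changes of 0.01 ± 0.18 and 0.13 ± 0.18 between the genotypes at 9 and 3 months.

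**Figure D3:**
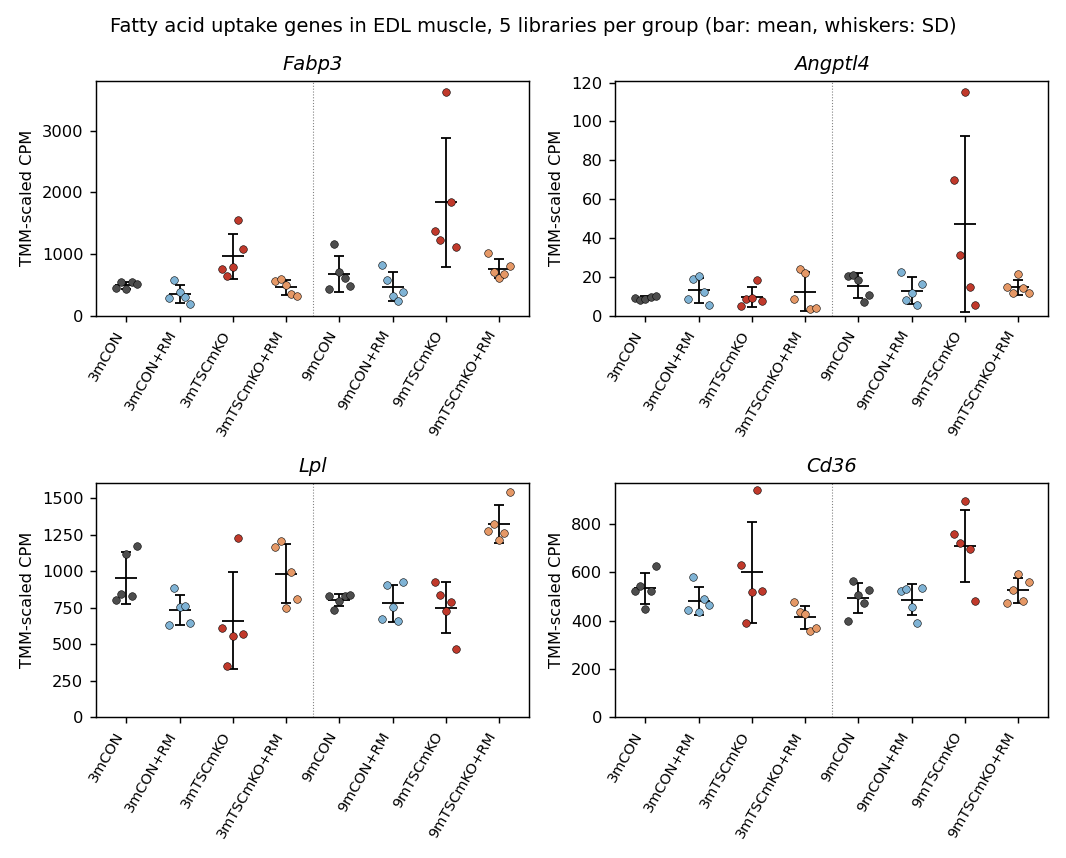
TMM-scaled CPM of Fabp3, Angptl4, Lpl and Cd36 in the 8 groups; points are the 5 libraries of a group, the bar is their mean and the whiskers their SD. Mean Fabp3 is highest in the vehicle TSCmKO groups, Angptl4 spreads from 5.47 to 115 CPM within 9mTSCmKO, and all Lpl points of 9mTSCmKO+RM lie above those of 9mTSCmKO.

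Of the 3 lipid droplet and lipolysis genes, Pnpla2 was called higher in 9mTSCmKO. Pnpla2 encodes adipose triglyceride lipase, which frees the first fatty acid of a stored triglyceride. Its libraries had 304, 357, 330, 329 and 267 CPM in 9mTSCmKO against 194, 242, 210, 231 and 242 in 9mCON, and the groups did not overlap. The log2 fold change was 0.50 ± 0.13 (SE, adjusted p = 0.00161), and it was called with any 1 library left out.

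At 3 months the Pnpla2 difference was 0.30 ± 0.13 and did not pass (adjusted p = 0.0908), with 231 to 331 CPM in 3mTSCmKO and 200 to 249 in 3mCON. After rapamycin it was lower in both TSCmKO groups by amounts that missed the threshold (log2 fold changes -0.25 ± 0.13 in the older and -0.28 ± 0.13 in the younger mice, with adjusted p of 0.133 and 0.112). Lpin1, a phosphatidic acid phosphatase and coactivator of PPARs, was the only member called for rapamycin in control muscle in the main fit. Upper-quartile factors and DESeq2 each called 2 members there at 9 months, 1 higher and 1 lower. Lpin1 had 341, 270, 462, 510 and 558 CPM in 9mCON and 528, 679, 665, 795 and 673 CPM in 9mCON+RM.

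In the same comparison the fast glycolytic fiber sum was 139634 to 155402 CPM in 9mCON+RM, above all of 9mCON (119209 to 136474 CPM), with 1 of the 8 genes called higher, and 9 of 10 tendon and fibroblast and 8 of 10 macrophage markers were called lower. Their part in the Lpin1 values was not tested. The overlap in Lpin1 was between 9mCON replicate 5 and 9mCON+RM replicate 1, and the log2 fold change was 0.64 ± 0.17 (SE, adjusted p = 0.0107). It was called with any 1 library left out, but not with only the compared groups in the fit (adjusted p = 0.0812). That made 1 member higher (2.78%) and 0 lower in 9mCON+RM against 9mCON, beside 5.03% and 6.82% of all genes. At 3 months rapamycin called 0 members in control muscle by edgeR and 0 by DESeq2, with 1 at an unadjusted p under 0.05, beside 0.362% of all genes higher and 0.318% lower, and Lpin1 differed by 0.33 there (adjusted p = 0.59). Plin5, a droplet coat protein of oxidative tissues, was called in no comparison.

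The carnitine shuttle held 4 of the 5 members called lower in 9mTSCmKO (18.9% of all genes): Cpt1a, Cpt2, Crat and Mlycd. Mlycd encodes malonyl-CoA decarboxylase, which removes the inhibitor of carnitine palmitoyltransferase 1. It had 42.5, 49.6, 68.2, 52.4 and 48 CPM in 9mTSCmKO and 56, 109, 91.8, 86.8 and 76.4 CPM in 9mCON. The groups overlap only through 9mTSCmKO replicate 3 and 9mCON replicate 1, and the log2 fold change of -0.69 ± 0.17 (SE, adjusted p = 0.00161) was called with any 1 library left out.

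Mlycd was also lower at 3 months, where the groups did not overlap. It had 38.7 to 58.1 CPM in 3mTSCmKO and 59.6 to 76.9 in 3mCON, and the difference of -0.52 ± 0.17 on the log2 scale passed (adjusted p = 0.0276), a call lost on leaving out replicate 2, 4 or 5 of 3mCON or replicate 1, 2 or 3 of 3mTSCmKO (values -0.50 to -0.43, adjusted p 0.0523 to 0.0938). With rapamycin at 9 months it rose to 95.5, 94.3, 89.9, 77.8 and 84 CPM, all above 9mTSCmKO (log2 fold change 0.76 ± 0.17, adjusted p = 0.000758). In control muscle Mlycd had 130, 122, 86.6, 76.6 and 89.6 CPM in 9mCON+RM and was not called against 9mCON. The difference between the rapamycin effects of the genotypes at 9 months was not called for Mlycd either. At 3 months the log2 fold change with rapamycin in TSCmKO was 0.25 ± 0.17 and did not pass (adjusted p = 0.317).

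Cpt2, the inner-membrane enzyme that reforms acyl-CoA, had 25.9, 43.4, 64, 44.9 and 39.2 CPM in 9mTSCmKO and 33.9, 70.3, 67.4, 64.4 and 66.8 CPM in 9mCON. Replicate 1 was the lowest of both groups. The log2 fold change of -0.48 ± 0.18 (SE) passed (adjusted p = 0.0315), a call lost on leaving out replicate 2, 3, 4 or 5 of 9mCON or replicate 1 or 5 of 9mTSCmKO (values -0.46 to -0.34, adjusted p 0.0606 to 0.124) and also with only the compared groups in the fit (adjusted p 0.185). At 3 months Cpt2 was not called between the genotypes (-0.13 ± 0.18, adjusted p = 0.663).

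Rapamycin raised Cpt2 in TSCmKO muscle at both ages. It had 84.1, 80.7, 70.6, 58.2 and 56.1 CPM in 9mTSCmKO+RM (log2 fold change 0.69 ± 0.18 (SE), adjusted p = 0.00298, called with any 1 library left out) and 66.2 to 93.9 CPM in 3mTSCmKO+RM, all above the 48.3 to 59.4 CPM of 3mTSCmKO (0.57 ± 0.18, adjusted p = 0.0162, a call lost on leaving out replicate 1 of 3mTSCmKO+RM (value 0.50, adjusted p 0.0508)). In control muscle the log2 fold changes were 0.08 ± 0.18 at 9 months and 0.18 ± 0.18 at 3 months, and the difference between the genotypes' responses did not pass at either age (adjusted p = 0.156 and 0.513). Of all 36 members, Lpl and Cpt2 were the ones called higher with rapamycin in TSCmKO muscle at both ages.

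Crat, carnitine acetyltransferase, was the most abundant gene of the shuttle. It had 379, 537, 491, 562 and 495 CPM in 9mTSCmKO and 480, 764, 589, 628 and 721 CPM in 9mCON, lower by the test (log2 fold change -0.37 ± 0.13, adjusted p = 0.0224). This was a call lost on leaving out replicate 2 or 5 of 9mCON or replicate 1 of 9mTSCmKO (values -0.30 to -0.29, adjusted p 0.0764 to 0.0858) and also with only the compared groups in the fit (adjusted p 0.154), and at 3 months the difference was 0.09 ± 0.13. Cpt1a was lower in 9mTSCmKO (10.7 ± 1.84 against 14.7 ± 3.22 CPM (SD), adjusted p = 0.0251), a call lost on leaving out replicate 1 or 5 of 9mCON or replicate 1, 4 or 5 of 9mTSCmKO (values -0.42 to -0.30, adjusted p 0.0558 to 0.171) and also with only the compared groups in the fit (adjusted p 0.106).

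Cpt1a was also lower in 9mTSCmKO+RM than in 9mCON (log2 fold change -0.58 ± 0.17, adjusted p = 0.00595), a call lost with only the compared groups in the fit (adjusted p 0.0522). The more abundant Cpt1b was not called between the genotypes, with log2 fold changes of -0.14 ± 0.11 at 9 months and -0.17 ± 0.11 at 3 months. Summing its counts with those of AC137513.1, an alternative chosen after seeing the data, gave no call for Cpt1b in any comparison. Slc25a20, the carrier that exchanges acylcarnitine for carnitine across the inner membrane, was called in no comparison (-0.06 ± 0.19 between the genotypes at 9 months).

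Among the 12 genes of the beta-oxidation spiral, 1 was called higher and 1 lower in each genotype comparison (beside 19.1% and 18.9% of all genes at 9 months and 11.4% and 8.32% at 3 months), and they were the same genes at both ages. Acads, the dehydrogenase for short chains, was higher in TSCmKO muscle. Its libraries had 65.5, 114, 147, 134 and 111 CPM in 9mTSCmKO against 47.9, 81, 60.3, 67.1 and 74 in 9mCON, with overlap only through 9mTSCmKO replicate 1. At 3 months the TSCmKO libraries had 72.9, 69.8, 77.4, 107 and 93.3 CPM and the controls 42.7, 47, 54.8, 48.1 and 50, without overlap.

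The log2 fold changes of Acads were 0.79 ± 0.16 (SE) at both ages, with adjusted p of 0.00011 in the older and 0.000232 in the younger mice, each called with any 1 library left out. Rapamycin did not move Acads past the threshold in TSCmKO muscle, with changes of -0.15 ± 0.16 and -0.09 ± 0.16. Treated TSCmKO muscle was above vehicle CON, by 0.64 ± 0.16 at 9 months and 0.71 ± 0.16 at 3 months on the log2 scale (adjusted p-values 0.00167 and 0.00114), without overlap at either age. The difference between the responses of Acads and Fabp3 to the drug was not tested.

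Acadm, the dehydrogenase for medium chains, was lower in TSCmKO muscle. It had 204, 254, 236, 250 and 220 CPM in 9mTSCmKO and 202, 377, 304, 328 and 348 CPM in 9mCON. Replicate 1 of 9mCON lay below all the TSCmKO libraries and the other controls above them. The log2 fold change was -0.42 ± 0.13 (SE, adjusted p = 0.0106) at 9 months, called with any 1 library left out but not with only the compared groups in the fit (adjusted p = 0.109). At 3 months it was also -0.42 ± 0.13 (adjusted p = 0.0193), with 211 to 277 CPM in 3mTSCmKO and 306 to 351 in 3mCON, a call lost on leaving out replicate 2 of 3mCON or replicate 2 of 3mTSCmKO (values -0.37 to -0.36, adjusted p 0.0569 to 0.0684).

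After rapamycin Acadm was at 244 to 306 CPM in 9mTSCmKO+RM, a log2 fold change of 0.25 ± 0.13 that did not pass (adjusted p = 0.149), and at 3 months it was 0.02 ± 0.13. Acadl, the long-chain dehydrogenase and the most abundant gene of the spiral by mean TPM over all 40 libraries, had 979, 468, 976, 490 and 404 CPM in 9mTSCmKO and 346, 757, 440, 452 and 415 CPM in 9mCON. Replicates 1 and 3 of 9mTSCmKO stood well above the other 3, and the log2 fold change of 0.46 ± 0.21 missed the threshold (adjusted p = 0.0793). At 3 months it was -0.19 ± 0.21, with 263 to 420 CPM in 3mTSCmKO and 343 to 501 in 3mCON.

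Hadha and Hadhb, the divergent pair described above, are given side by side under rapamycin. Hadha had 224, 381, 437, 383 and 273 CPM in 9mTSCmKO and 474, 490, 483, 413 and 408 CPM in 9mTSCmKO+RM (log2 fold change 0.42 ± 0.14 (SE), adjusted p = 0.022, a call lost on leaving out replicate 1 or 5 of 9mTSCmKO or replicate 2 of 9mTSCmKO+RM (values 0.28 to 0.39, adjusted p 0.0522 to 0.128) and also with only the compared groups in the fit (adjusted p 0.118)). Hadhb had 192, 340, 434, 371 and 310 CPM and 347, 377, 339, 307 and 312 CPM in the same groups (0.03 ± 0.15, adjusted p = 0.901). At 3 months the Hadha log2 fold change was 0.30 ± 0.14, without overlap but short of the threshold (adjusted p = 0.126), and that of Hadhb was -0.11 ± 0.15 (adjusted p = 0.64). The difference between the 2 genes was not tested.

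Hadh, the short-chain hydroxyacyl-CoA dehydrogenase, rose with rapamycin at 3 months from 173 ± 30.6 to 239 ± 21.3 CPM (SD; log2 fold change 0.47 ± 0.15 (SE), adjusted p = 0.0159), called with any 1 library left out. At 9 months its log2 fold change was 0.18 ± 0.14 and did not pass. The other 7 genes of the spiral, Acadvl, Echs1, Acaa2, Eci1, Eci2, Decr1 and Hadhb, were called in no genotype or rapamycin comparison, and their log2 fold changes between the genotypes ran from -0.30 (Eci1) to 0.04 (Echs1) at 9 months. Decr1 was not called at 3 months (-0.31 ± 0.13, adjusted p = 0.0943) although its groups did not overlap.

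**Figure D4:**
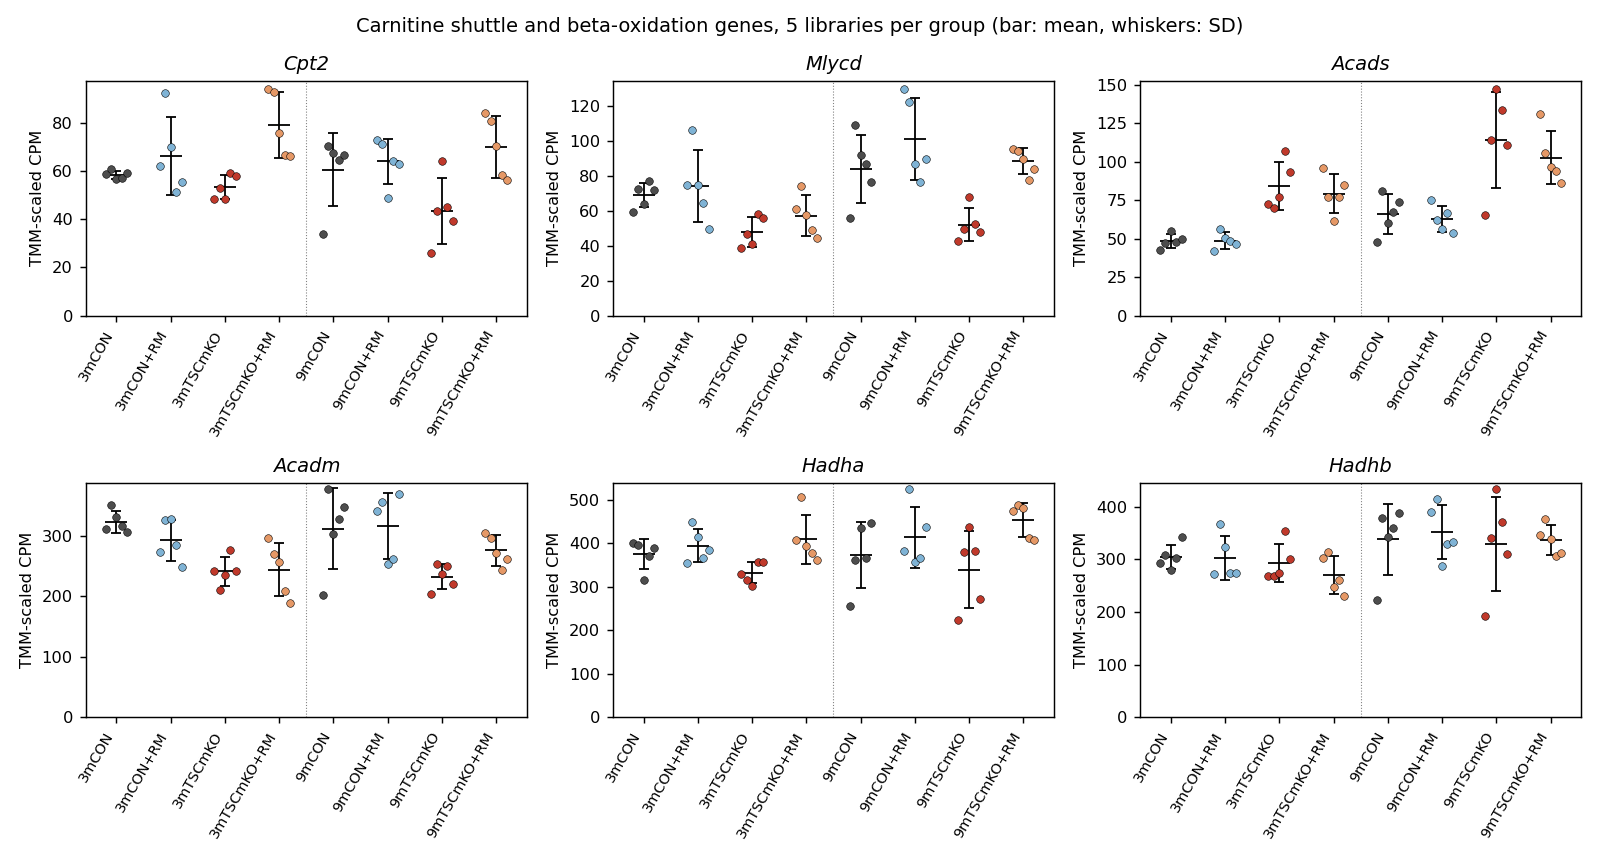
TMM-scaled CPM of Cpt2, Mlycd, Acads, Acadm, Hadha and Hadhb in the 8 groups; points are the 5 libraries of a group, the bar is their mean and the whiskers their SD. Mlycd is low in both vehicle TSCmKO groups and reaches 77.8 to 95.5 CPM in 9mTSCmKO+RM, and Acads is high in all 4 TSCmKO groups.

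The electron transfer flavoprotein, which takes electrons from the acyl-CoA dehydrogenases, had no subunit called in any comparison. Of Etfa, Etfb and Etfdh, 0 were called by edgeR and 0 by DESeq2 over the 13 comparisons, with 2 values at an unadjusted p under 0.05. The share of all genes called in these comparisons ran from 0.318% to 19.1% in a direction. Etfa, the most abundant of the 3, had 284, 256, 330, 294 and 250 CPM in 9mTSCmKO and 184, 438, 239, 271 and 229 in 9mCON. Its log2 fold change was 0.05 ± 0.17 there and -0.21 ± 0.17 at 3 months, where Etfb reached -0.36 ± 0.16 (adjusted p = 0.12, 0.0329 unadjusted).

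Among the regulators and fuel-switch genes, 0 of 7 were called between the genotypes by edgeR at either age, beside 19.1% of all genes higher and 18.9% lower at 9 months and 11.4% and 8.32% at 3 months. At 9 months 1 had an unadjusted p under 0.05 and DESeq2 called 1, and at 3 months both counts were 0. Pdk4, the kinase that turns off pyruvate dehydrogenase when fat is the fuel, had 1656, 1553, 1600, 2917 and 2386 CPM in 3mTSCmKO and 1408, 1191, 1043, 1349 and 1032 in 3mCON. The groups did not overlap, but the log2 fold change of 0.75 ± 0.38 (SE) missed the threshold (adjusted p = 0.168). At 9 months the difference was 0.40 ± 0.37 (984 to 2097 against 760 to 2015 CPM).

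With rapamycin at 3 months Pdk4 had 839, 1810, 1819, 247 and 316 CPM in 3mTSCmKO+RM. Replicates 4 and 5 were the lowest of all 40 libraries for this gene, while replicates 2 and 3 lay within the vehicle range. It was lower after treatment (log2 fold change -1.01 ± 0.38, adjusted p = 0.0486), a call lost on leaving out replicate 1, 3, 4 or 5 of 3mTSCmKO or replicate 1, 4 or 5 of 3mTSCmKO+RM (values -1.07 to -0.76, adjusted p 0.0516 to 0.138) and also with upper-quartile factors (adjusted p 0.0579), without the filter on low counts (adjusted p 0.0959) and with only the compared groups in the fit (adjusted p 0.217). The 9-month log2 fold change was -0.26 ± 0.37.

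Ucp3, a mitochondrial carrier of fast muscle that rises with fatty acid supply, was low in the same 2 libraries. It had 112, 248, 269, 38.2 and 55.7 CPM in 3mTSCmKO+RM, beside 233, 451, 197, 379 and 280 in 3mCON. Treated TSCmKO muscle was below vehicle CON at 3 months (log2 fold change -1.09 ± 0.38, adjusted p = 0.0411), a call lost on leaving out replicate 2, 4 or 5 of 3mCON or replicate 1, 4 or 5 of 3mTSCmKO+RM (values -1.12 to -0.85, adjusted p 0.0543 to 0.13) and also without the filter on low counts (adjusted p 0.0893) and with only the compared groups in the fit (adjusted p 0.202).

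At 9 months Ucp3 was 171, 186, 155, 152 and 124 CPM in 9mTSCmKO+RM and 224, 404, 480, 356 and 304 in 9mCON, without overlap. That log2 fold change was -1.17 ± 0.38 (SE, adjusted p = 0.0165), called with any 1 library left out. The vehicle comparison at 9 months was -0.89 ± 0.37 (119 to 227 CPM in 9mTSCmKO, adjusted p = 0.058), and the log2 fold change with rapamycin in TSCmKO was -0.27 ± 0.37.

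Ucp2, its neighbour 6904 bases away on chromosome 7, showed the one difference called at 9 months between the rapamycin effects of the genotypes. It had 34.1, 19, 34.5, 21.2 and 15.1 CPM in 9mTSCmKO and 61.6, 21.3, 24.2, 40.8 and 39 in 9mTSCmKO+RM (0.59 ± 0.27, adjusted p = 0.0915), and 30, 18, 22, 17 and 18.9 in 9mCON and 20.1, 11.1, 14.5, 11.8 and 8.23 in 9mCON+RM (-0.69 ± 0.28, adjusted p = 0.109). Each change alone missed the threshold. Their difference was 1.28 ± 0.39 (SE, adjusted p = 0.0472; 1 member higher beside 2.56% of all genes and 0 lower beside 2.31%), a call lost on leaving out replicate 1, 3 or 5 of 9mCON or replicate 2, 3, 4 or 5 of 9mCON+RM or replicate 2, 4 or 5 of 9mTSCmKO or replicate 1, 4 or 5 of 9mTSCmKO+RM (values 1.02 to 1.31, adjusted p 0.0521 to 0.1) and also without the filter on low counts (adjusted p 0.0889), with insert size as a term (adjusted p 0.0778) and with only the compared groups in the fit (adjusted p 0.113).

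Treated TSCmKO muscle exceeded vehicle CON in Ucp2 at 9 months (37.4 ± 16.1 against 21.2 ± 5.27 CPM (SD), adjusted p = 0.02), a call lost on leaving out replicate 4 of 9mCON or replicate 1 of 9mTSCmKO+RM (values 0.57 to 0.75, adjusted p 0.0511 to 0.104). Macrophages also express Ucp2, and 8 of 10 macrophage markers were called lower in 9mCON+RM and 3 of 10 in 9mTSCmKO+RM, with sums of 22.8 to 56.8 CPM in 9mCON+RM, 67.7 to 186 in 9mCON, 47.9 to 69.2 in 9mTSCmKO+RM and 62.4 to 131 in 9mTSCmKO. The part of these cells in the Ucp2 values was not tested.

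**Figure D5:**
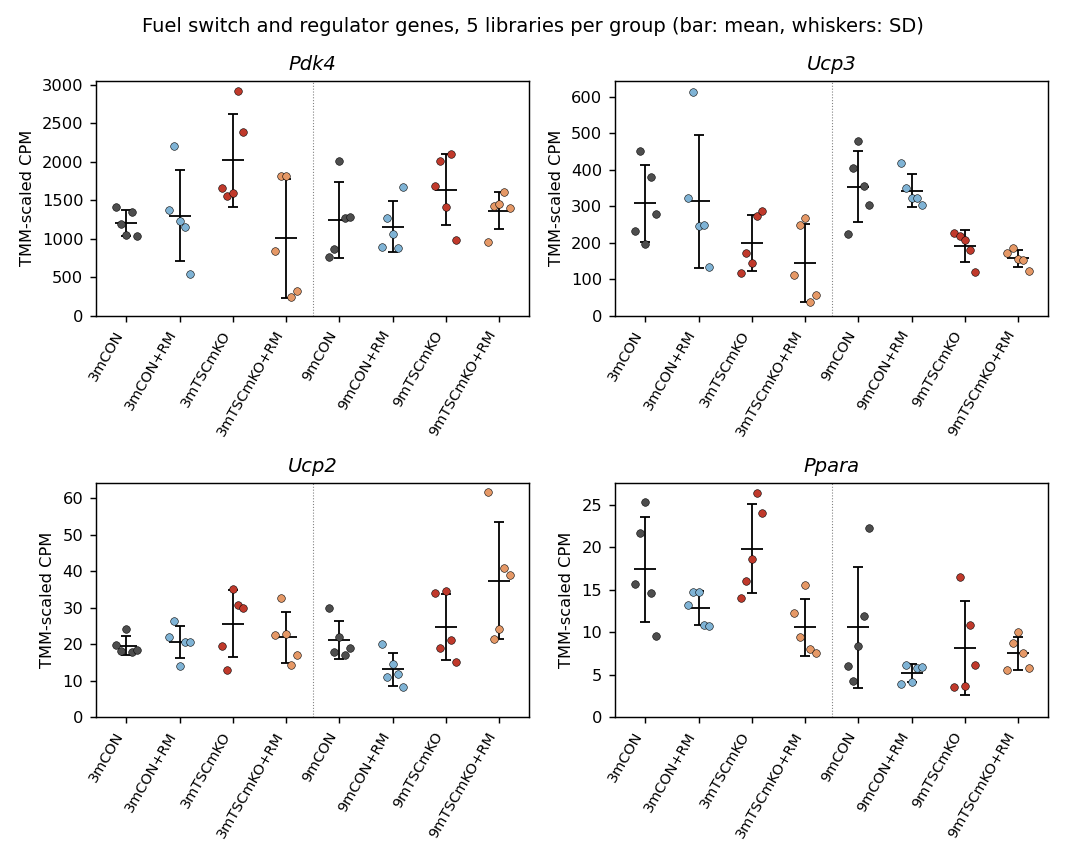
TMM-scaled CPM of Pdk4, Ucp3, Ucp2 and Ppara in the 8 groups; points are the 5 libraries of a group, the bar is their mean and the whiskers their SD. Within 3mTSCmKO+RM the Pdk4 and Ucp3 points split, with replicates 4 and 5 at 247 and 316 CPM of Pdk4 and at 38.2 and 55.7 CPM of Ucp3, below the other points.

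The nuclear receptors Ppara and Ppard were both called lower with rapamycin in 3mTSCmKO+RM. Ppara went from 14.1, 16.1, 18.7, 26.4 and 24 CPM to 12.2, 9.49, 15.5, 8.05 and 7.59 CPM (log2 fold change -0.92 ± 0.34 (SE), adjusted p = 0.046), a call lost on leaving out replicate 3, 4 or 5 of 3mTSCmKO or replicate 1, 2, 4 or 5 of 3mTSCmKO+RM (values -0.97 to -0.79, adjusted p 0.0547 to 0.118) and also with upper-quartile factors (adjusted p 0.0546), without the filter on low counts (adjusted p 0.0932), with insert size as a term (adjusted p 0.0586) and with the replicate block (adjusted p 0.0588). Ppard went from 36.5, 44.7, 41, 41 and 54.3 CPM to 30.9, 37.8, 31.2, 27.4 and 28.6 CPM (-0.48 ± 0.12, adjusted p = 0.00365, called with any 1 library left out). At 9 months their log2 fold changes were -0.10 ± 0.35 and 0.08 ± 0.13, and in control muscle that of Ppara was -1.04 ± 0.36 (adjusted p = 0.0563). There Ppara had 6.08, 4.23, 8.37, 12 and 22.3 CPM in 9mCON, with replicate 5 well above the others, and 3.92 to 6.17 CPM in 9mCON+RM.

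The acyl-CoA thioesterases Acot1 and Acot2, adjacent on chromosome 12, were called in no genotype or rapamycin comparison. Acot2 had 40.8 ± 24.3 CPM (SD) in 9mTSCmKO and 23.1 ± 2.98 CPM in 9mTSCmKO+RM (adjusted p = 0.0699). Reads shared between the pair leave both values uncertain.

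In 9mCON against 3mCON, 0 members were called by edgeR and 0 by DESeq2, with 3 at an unadjusted p under 0.05, beside 0.679% of all genes higher and 0.34% lower. In 9mTSCmKO against 3mTSCmKO, 6 members (16.7%) were called higher and 4 (11.1%) lower, beside 19.1% and 18.3% of all genes. Higher were Angptl4 (log2 fold change 2.26 ± 0.58), Acot2 (1.05 ± 0.35), Fabp3 (0.93 ± 0.32), Acadl (0.83 ± 0.21), Acads (0.44 ± 0.16) and Acadvl (0.40 ± 0.12), and lower were Ppara (-1.30 ± 0.35), Ppard (-0.58 ± 0.12), Cpt1a (-0.55 ± 0.16) and Crat (-0.45 ± 0.13).

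The Angptl4 difference was 1.62 without 9mTSCmKO replicate 3, still called (adjusted p = 0.0247). The Fabp3 difference was a call lost on leaving out replicate 2 of 3mTSCmKO or replicate 3 of 9mTSCmKO (values 0.53 to 0.83, adjusted p 0.0574 to 0.188), and that of Acot2 was a call lost on leaving out replicate 1 or 3 of 9mTSCmKO (values 0.72 to 0.89, adjusted p 0.064 to 0.109) and also with only the compared groups in the fit (adjusted p 0.0538). The Acads difference was a call lost on leaving out replicate 1 or 2 of 3mTSCmKO or replicate 3 or 4 of 9mTSCmKO (values 0.33 to 0.40, adjusted p 0.0565 to 0.107) and also with only the compared groups in the fit (adjusted p 0.101), and that of Acadvl was a call lost on leaving out replicate 3 of 9mTSCmKO (value 0.31, adjusted p 0.0535) and also with only the compared groups in the fit (adjusted p 0.0527). With the mean insert size as a term, in a fit that drops replicate 5 of 9mTSCmKO+RM because the labels give it no insert size, 0 of these 10 were called, with no change of direction. Their log2 fold changes shrank in 6 (Angptl4 to 1.82, Acot2 to 0.79, Acadl to 0.49, Ppara to -0.85, Ppard to -0.27 and Crat to -0.29) and grew in 4 (Fabp3 to 1.07, Acads to 0.52, Acadvl to 0.45 and Cpt1a to -0.61), with adjusted p of 0.0759 to 0.347. By the labels the inserts were 175 to 239 nt long in the younger groups and 223 to 308 nt in the older, so that age and library preparation cannot be told apart in this comparison. The genotype effects of the 2 ages did not differ past the threshold for any member (0 called by edgeR and 0 by DESeq2, 3 at an unadjusted p under 0.05, beside 3.01% of all genes higher and 1.93% lower).

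The members also differed in how much they varied between mice of a group. The pooled SD within groups on the log2 scale was largest for Angptl4 (0.96), Pdk4 (0.64), Ucp3 (0.63), Acot2 (0.58), Ppara (0.58), Acot1 (0.58) and Plin5 (0.55), and smallest for Cpt1b (0.17), Acadvl (0.19) and Ppard (0.20). The genes of the spiral lay at 0.35 (Acadl) or below. In 3mCON+RM replicate 2 was the highest library for 31 of the 36 members and replicate 5 the lowest for 22, and in 3mTSCmKO+RM replicate 2 was the highest for 20 and replicate 5 the lowest for 19.

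Other genes of fatty acid metabolism outside the 36 were counted from lists by function. Over all genes tested, 19.1% were called higher and 18.9% lower in 9mTSCmKO against 9mCON, and 15.8% higher and 16.8% lower in 9mTSCmKO+RM against 9mTSCmKO. Of 18 triglyceride storage and lipolysis genes tested, 6 were called higher and 1 lower in 9mTSCmKO against 9mCON, and 1 higher and 6 lower with rapamycin in 9mTSCmKO+RM. Plin2, the coat protein of most lipid droplets, was higher by 1.25 ± 0.13 (SE, log2) in 9mTSCmKO, Lpin2 by 1.24 ± 0.20 and Gpat3 by 0.89 ± 0.24. With the drug Plin3 fell by 1.07 and Gpat3 by 0.83, and Gpam, the mitochondrial acyltransferase of triglyceride synthesis, rose by 1.06 ± 0.31.

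Of 10 genes of malonyl-CoA and fuel selection, 4 were called higher and 1 lower in 9mTSCmKO (19.1% and 18.9% of all genes), led by the pyruvate dehydrogenase kinase Pdk3 (log2 fold change 3.73 ± 0.26), its opposing phosphatase Pdp1 (1.54 ± 0.18) and the AMP-activated kinase subunit Prkaa1 (0.99 ± 0.13). With rapamycin at 9 months 2 were called higher and 3 lower (15.8% and 16.8% of all genes), Pdp1 and Pdk3 by -1.17 each and Prkag3 by -1.10. Pdk4, the abundant member of the same kinase family, was called in neither. Of 5 ketone body genes, 1 was called higher and 1 lower in 9mTSCmKO (19.1% and 18.9% of all genes) and 0 higher and 2 lower with the drug (15.8% and 16.8%). Bdh1, which interconverts the 2 main ketone bodies, was higher by 2.18 ± 0.30 in 9mTSCmKO and fell by 2.33 with the drug, Acat1 was lower in 9mTSCmKO (-0.49 ± 0.10), and Oxct1 fell by 0.68 with the drug.

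Of 6 other thioesterases tested, 3 were called higher and 0 lower in 9mTSCmKO (19.1% and 18.9% of all genes), with Acot4 at 1.75 ± 0.23, Acot9 at 1.52 ± 0.15 and Acot7 at 0.37 ± 0.14, and 0 higher and 3 lower with rapamycin (15.8% and 16.8% of all genes). Among 20 peroxisomal genes 4 were called higher and 4 lower in 9mTSCmKO, shares close to those of all genes, and the acyl-CoA oxidase Acox2 had the largest change, 5.25 ± 0.53, falling by 2.41 with the drug. With rapamycin 2 of the 20 were called higher and 5 lower, the latter including Abcd2 (-0.88 ± 0.12) and Acot8 (-0.71 ± 0.17). Of 14 other uptake and trafficking genes 3 were called higher and 1 lower (Dbi, the acyl-CoA binding protein, 0.99 ± 0.29, and the carrier Slc27a1, -0.57 ± 0.15), and 2 higher and 5 lower with the drug, when Dbi fell by 1.21.

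Beside the same shares of all genes (19.1% and 18.9% by genotype, 15.8% and 16.8% by drug), of 12 other mitochondrial genes 3 were called higher and 1 lower in 9mTSCmKO (Echdc2, -0.68 ± 0.18), and 2 higher and 3 lower with rapamycin, where Acad12 (0.94 ± 0.13) and Acad10 (0.91 ± 0.13) rose. Of 15 other regulators 3 were called higher and 5 lower in 9mTSCmKO, with Rxrg, a partner receptor of the PPARs, at -1.63 ± 0.16, Cited2 at 1.57 ± 0.20 and Nr4a1 at -1.46 ± 0.34. With the drug 2 were called higher and 1 lower.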

How the data were processed

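Poly(A) RNA of whole EDL muscle was sequenced, 1 library per sample. The authors trimmed single-end reads with cutadapt 1.9.1, assigned them with kallisto 0.43.1 to GRCm38 transcripts and shared a read equally among the transcripts it hit. The deposited tables hold estimated counts per gene, already whole numbers, and TPM that the authors derived from them. Here edgeR 4.0.16 (R 4.3.3) was run on these counts for the 13543 genes that reached 1 CPM in 5 libraries, using TMM factors, 8 group means fitted to all 40 libraries, robust quasi-likelihood F-tests, two-sided p-values and Benjamini-Hochberg adjustment over all genes at 0.05. Standard errors were derived from the F statistics. TPM served for levels between genes only. The samples are taken as separate mice, which the labels do not state in words, and p-values measure the spread between them. Values per library are given for members called in a genotype or rapamycin comparison with an absolute log2 fold change of 1 or more, for the most abundant member of each role, and for others a result turns on. From the other lists, at most 3 called genes each are named. Shared reads were searched as identical 50-base windows in GENCODE M21 transcripts of genes in the table. The authors describe a reference limited to well-supported protein-coding transcripts from Ensembl, so the shares behind their counts may differ. The steps were tested on simulated counts in which all genes had the same spread. That test does not cover members with a larger spread or with smaller changes than those planted. The members and lists were chosen with earlier results of these data known. The labels name no batches, and 0 value columns lacked a label.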

Additional observations from a re-analysis of the deposited data

Results flagged for a closer look

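In groups of 5 libraries, a value was singled out where its gap to the nearest other library exceeded 0.71 of the group's range, which chance does in about 1 in 20 groups. Over the 36 members and 8 groups this gave 20 of 288 groups, of which 5 were low values of 9mCON replicate 1 and 4 were high values of 9mTSCmKO+RM replicate 1. Among the 9 members singled out for a called log2 fold change of at least 1 or as the most abundant of their role, there were 2 such values. Acadl had 757 CPM in 9mCON replicate 2, beside 452 CPM in the next library of that group. Crat had 948 CPM in 9mCON+RM replicate 1, beside 702 CPM in the next.

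The rapamycin effect differed between TSCmKO and CON, by the test of the difference itself, for Ucp2 at 9 months (1.28 on the log2 scale, higher in 9mTSCmKO+RM than in 9mTSCmKO by the mean and lower in 9mCON+RM than in 9mCON) and for Lpl at 3 months (0.95). Both adjusted p-values were close to the threshold, at 0.0472 and 0.0487.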

How the results depend on the processing

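Of 50 called differences of single members, 16 were called in every other fit and 0 turned direction. Counts of members called (in the order of higher, then lower) that moved by over 1.5 times were as follows. Fitting only the groups compared gave 6 for 9mTSCmKO against 9mCON (4 and 2), 7 for 3mTSCmKO against 3mCON, 4 for rapamycin in TSCmKO at 9 months, 0 for rapamycin in CON at 9 months and 6 for treated 3mTSCmKO against 3mCON. Without the filter on low counts there were 0 called for both genotype by rapamycin differences and 1 for treated 3mTSCmKO against 3mCON. Insert size as a term gave 0 for the 9-month difference and 0 between ages in TSCmKO. Upper-quartile factors and DESeq2 each gave 2 for rapamycin in CON at 9 months, and DESeq2 gave 2 for the 9-month difference. The labels do not say whether replicate numbers pair the libraries. No comparison had all 5 pairs of the same number correlated over 0.1 (for 9mTSCmKO and 9mCON -0.363 to 0.289, with 2 over 0.1). Since controls were littermates, this cannot exclude litters shared between libraries. With the replicate block, 0 were called for the 3-month difference, 11 for 9mTSCmKO against 9mCON and 7 for rapamycin in TSCmKO at 9 months. Leaving out 1 library at a time gave 6 to 12 members for 9mTSCmKO against 9mCON, 2 to 4 for 3mTSCmKO against 3mCON, 6 to 8 and 4 to 8 for rapamycin in TSCmKO at 9 and 3 months, 1 to 2 for rapamycin in CON at 9 months and 0 at 3 months, 0 to 2 for each genotype by rapamycin difference, 0 to 1 for the genotype effect between ages, 4 to 6 and 1 to 4 for treated TSCmKO against CON at 9 and 3 months, and 0 to 1 and 7 to 14 between ages in CON and TSCmKO. Summing near-identical genes moved 0 counts by over 1.5 times. The cause of these moves was not tested.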
